A study of Mus musculus with 8 samples.

Results

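The 8 genes described here encode products of the secretory cells of the airway surface, and their RNA was followed in lungs of mice with and without ovalbumin (OVA) allergy. They were the secretoglobins Scgb1a1, Scgb3a1, Scgb3a2 and Scgb1c1, the BPI-fold proteins Bpifa1 and Bpifb1, and the enzymes Aldh1a1 and Fmo2. The members were found by the RefSeq accession that the scanner output gives for each probe, and all 8 genes had a probe, 9 probes in all, of which Fmo2 had 2. All 9 probes were well above background on all 8 arrays, out of 28992 genes or unnamed transcripts with a usable probe.

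The samples were whole lungs of female BALB/c mice, bought at 4 weeks of age and housed for 2 weeks before the experiment, with 2 mice in each of 4 groups and 1 single-color Agilent array per mouse. Every group was given its feed for 70 days. NT mice were given standard feed and met no OVA. The other 3 groups were given OVA adsorbed to aluminum oxide gel by intraperitoneal injection on Days 42, 49 and 56. They were also given OVA as an aerosol from Day 63 to Day 69. Lungs were taken on Day 70, with 24 h between the final aerosol and collection. Of the OVA-challenged groups, Ctrl-F mice were given standard feed and Cap-F mice feed with control carbonate apatite particles. ODNcap-F mice were given feed with the particles that carry CpG oligodeoxynucleotide. Ctrl-F against NT asked what the OVA treatment, with its gel, injections and aerosol, changed under standard feed. The methods describe no group given gel or aerosol without OVA, so that these parts cannot be told apart. Cap-F and ODNcap-F differed from NT in both the OVA treatment and the feed, and the 2 cannot be told apart there. The comparisons among Ctrl-F, Cap-F and ODNcap-F asked whether the feed changed the outcome. Levels are log2 intensities after quantile normalization over the 8 arrays. Calls required both an adjusted p below 0.05 (limma, Benjamini-Hochberg) and more than a 2-fold change. The limma fit used all 8 arrays, and intervals are 95% intervals from it.

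Club cells are the dome-shaped secretory cells that line the bronchioles. They release small secretoglobins, the main one being Scgb1a1 (also called CC10), and carry enzymes that oxidize foreign compounds. Mucous (goblet) cells can arise from them in allergic airways, where the mucins Muc5ac and Muc5b are made. The BPI-fold proteins Bpifa1 (SPLUNC1) and Bpifb1 (LPLUNC1) are secreted lipid-binding proteins of airway defence, related to bactericidal permeability-increasing protein.

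As a check of the label lung, alveolar markers were read first. Sftpc, the surfactant protein of alveolar type 2 cells, lay between 17.60 and 17.64 on all 8 arrays, and Ager, of type 1 cells, between 16.10 and 17.06. On single arrays 61.3% to 65.0% of 56605 probes were well above background. All arrays shared 1 slide, with NT and Ctrl-F in its row 1, and Cap-F and ODNcap-F in its row 2. Thus only Ctrl-F against NT and ODNcap-F against Cap-F were compared within a row. In the other 4 comparisons row and group cannot be told apart. The p-values rest on the spread between the 2 mice of a group, pooled over all 4 groups. A gap between the NT mice thus also widens the intervals of comparisons without NT. In whole lung, fewer cells of a type and less RNA per cell cannot be told apart.

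Against NT, the members split. Scgb3a2, Scgb1c1, Aldh1a1 and Fmo2 fell in all 3 OVA-challenged groups, and Bpifb1 rose in all 3. By limma, Scgb3a1 was called higher in ODNcap-F alone, and Scgb1a1 and Bpifa1 were called in no comparison. The local-pooled-error test named in the methods also called Scgb3a1 higher in Ctrl-F and Cap-F and Bpifa1 lower in Cap-F (adjusted p = 3.30e-11 by that test). In Ctrl-F, 4 of the 8 members were called lower and 1 higher, where 12.2% of all genes were called lower and 10.5% higher. In Cap-F, 4 members were called lower and 1 higher, against 9.87% and 9.74% of all genes. In ODNcap-F, 4 members were called lower and 2 higher, against 10.8% and 9.86% of all genes. The median log2 fold change of the 8 members was -1.44 for Ctrl-F, -1.29 for Cap-F and -1.06 for ODNcap-F, beside medians over all genes of -0.12, -0.11 and -0.12.

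**Figure D1:**
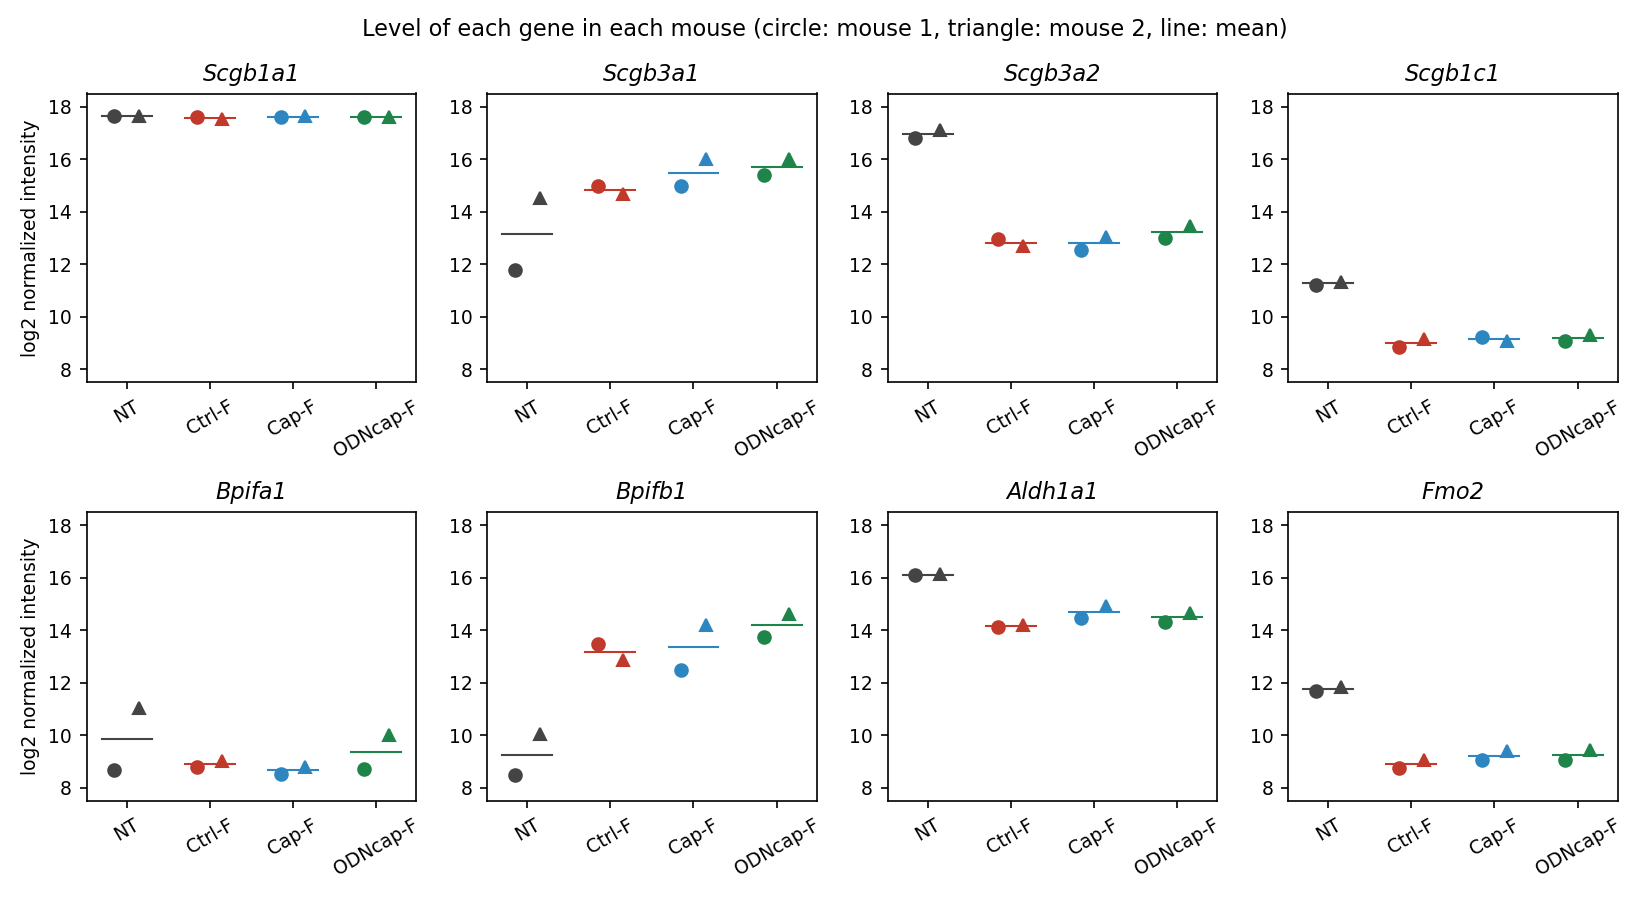
Log2 normalized intensity (vertical axis) of each of the 8 genes in each of the 8 mice, by group; circles are mouse 1, triangles mouse 2 and lines the mean of the 2 mice. Scgb3a2, Scgb1c1, Aldh1a1 and Fmo2 lie highest in NT, Bpifb1 lies lowest in NT, Scgb1a1 lies between 17.52 and 17.64 throughout, and the 2 NT mice lie apart for Scgb3a1, Bpifa1 and Bpifb1.

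The set of promoter sequences used, before RefSeq gene starts (GRCm38.p6), held 6 of the 8 members. It had no sequence for Scgb1a1 and Scgb3a2, although RefSeq lists both genes. The 250 bases before the outermost start of each gene were searched on both strands for 6 short motifs. These were the TATA box and motifs of factors that act in airway secretory cells or in the response to cytokines. The sequences of Scgb3a1 and Bpifb1 are shown because both genes lay higher after challenge than in NT, that of Scgb1c1 because this secretoglobin fell, and that of Bpifa1 because it is the chromosomal neighbour of Bpifb1 that was not called. Capitals mark motif matches, and each sequence runs 5′ to 3′ on the strand of its gene.
Scgb3a1 (chr11:49663345-49663594, + strand): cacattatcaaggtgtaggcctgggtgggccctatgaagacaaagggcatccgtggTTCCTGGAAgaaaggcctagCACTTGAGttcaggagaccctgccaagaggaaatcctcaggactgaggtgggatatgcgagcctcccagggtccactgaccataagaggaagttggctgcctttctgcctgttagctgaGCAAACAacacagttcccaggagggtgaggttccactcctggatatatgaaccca
Bpifb1 (chr2:154190568-154190817, + strand): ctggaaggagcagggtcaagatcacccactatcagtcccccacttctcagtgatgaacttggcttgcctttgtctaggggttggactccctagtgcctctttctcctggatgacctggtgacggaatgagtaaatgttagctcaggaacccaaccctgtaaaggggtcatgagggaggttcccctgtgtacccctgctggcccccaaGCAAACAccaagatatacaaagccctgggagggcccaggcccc
Scgb1c1 (chr7:140845315-140845564, + strand): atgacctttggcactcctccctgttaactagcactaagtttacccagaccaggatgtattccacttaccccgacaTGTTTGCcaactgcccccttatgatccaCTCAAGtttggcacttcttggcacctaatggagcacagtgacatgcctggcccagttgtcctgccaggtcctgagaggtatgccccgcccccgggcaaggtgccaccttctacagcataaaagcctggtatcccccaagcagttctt
Bpifa1 (chr2:154142630-154142879, + strand): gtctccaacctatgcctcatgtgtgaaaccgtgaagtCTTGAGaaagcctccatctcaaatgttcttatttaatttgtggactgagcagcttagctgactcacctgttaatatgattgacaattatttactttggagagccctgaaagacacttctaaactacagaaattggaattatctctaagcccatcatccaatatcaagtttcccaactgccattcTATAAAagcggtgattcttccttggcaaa

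The FOXA motif TGTTTGC was found in 3 of the 6 windows, those of Scgb3a1, Bpifb1 and Scgb1c1, and in 4.3% of 32851 promoter windows of the same length. In Scgb3a1 it ran on the opposite strand from -55 to -49, counted from the start of the gene, and in Bpifb1 on the opposite strand from -43 to -37. In Scgb1c1, which fell, it ran on the strand of the gene from -175 to -169. The other FOXA form, TGTTTAC, was in none of these 6 outer windows and in 3.17% of all windows. CTCAAG, a form of the NKX2-1 motif, was in the windows of Scgb3a1, Scgb1c1 and Bpifa1 and in 13.3% of all windows. The second form, CAAGTG, was in the window of Scgb3a1 and in 11.6% of all windows, and there the 2 forms overlapped. The STAT motif TTCNNNGAA was found in the window of Scgb3a1 (7.02% of all windows) and TATAAA in that of Bpifa1 (12.4%). These outer windows of Aldh1a1 and Fmo2 held no match to any of the 6. RefSeq gives 1 further start each for Bpifb1, Aldh1a1 and Fmo2, and the 250 bases before it held TTCNNNGAA from -146 to -138 for Bpifb1, CAAGTG from -115 to -110 for Aldh1a1 and TGTTTAC from -28 to -22 for Fmo2. The shares over all windows count every such start of a gene, not the outermost alone. These matches describe letters in a window and are not binding data.

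**Figure D2:**
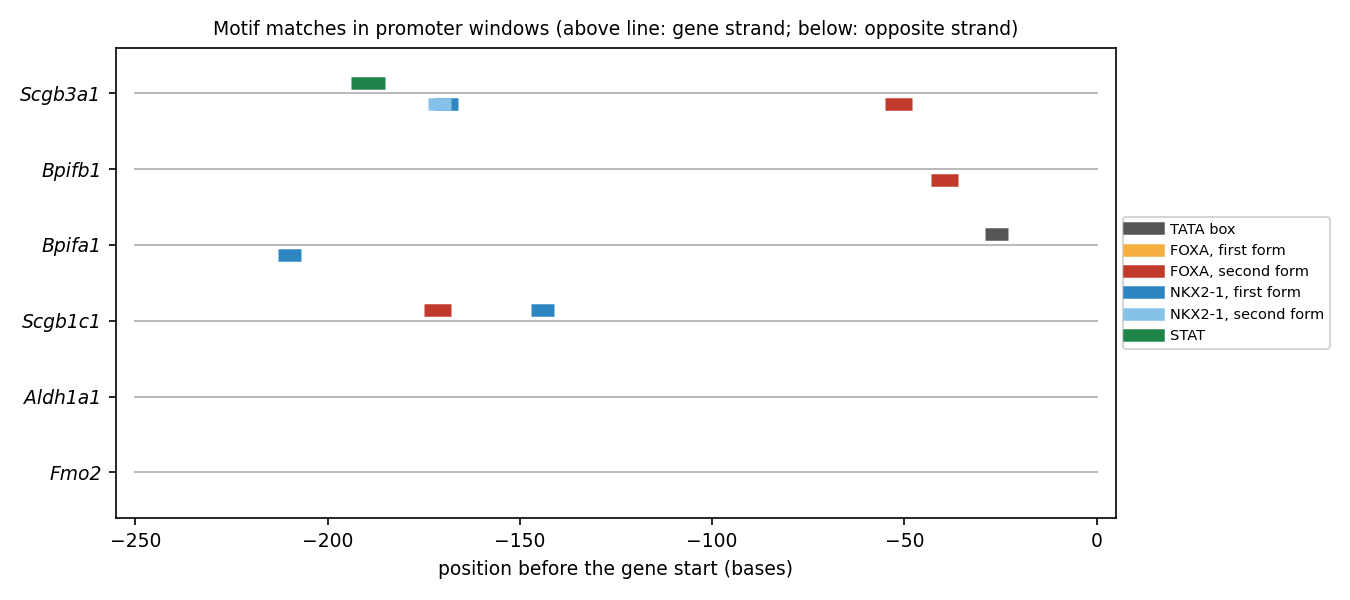
Matches of the 6 motifs (colored bars) in the 250 bases before the start of 6 genes; the horizontal axis is the position before the start in bases, bars above a line lie on the strand of the gene and bars below it on the opposite strand. The FOXA form TGTTTGC lies at -55 to -49 in Scgb3a1 and at -43 to -37 in Bpifb1, and further from the start in Scgb1c1.

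Scgb1a1, the main secreted protein of club cells, was the most even of the members. Its log2 level was 17.64 in both NT mice, 17.60 and 17.52 with standard feed and OVA (Ctrl-F), 17.60 and 17.64 in Cap-F mice and 17.60 in both ODNcap-F mice. The whole span over 8 mice was thus 17.52 to 17.64, with the 2 Ctrl-F mice at and below the rest. Against NT the log2 fold change was -0.08 for Ctrl-F (interval -0.24 to 0.08, adjusted p = 0.311), -0.02 for Cap-F (-0.18 to 0.14, adjusted p = 0.803) and -0.04 for ODNcap-F (-0.20 to 0.12, adjusted p = 0.606). The probe ranked between 3 and 6 among 56605 probes on every array, and quantile normalization gives probes of equal rank equal values, which leaves such a bright probe little room to differ. Before normalization its intensity ran from 178009 to 213137, and the brightest probe of any array from 263304 to 293824. With each array scaled to its 75th percentile instead, the log2 fold changes were -0.16, -0.15 and -0.04, still not called.

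Scgb3a2, a secretoglobin of the bronchioles whose gene is a known target of NKX2-1, had the largest change of any member that fell. The NT mice were at 16.79 and 17.10. The Ctrl-F mice were at 12.95 and 12.70, the Cap-F mice at 12.54 and 13.04, and the ODNcap-F mice at 13.00 and 13.46. All 6 challenged mice lay more than 3 log2 units below both NT mice. The fall was by 4.12 for Ctrl-F (SE 0.23, interval -4.70 to -3.55, adjusted p = 6.57e-05), by 4.15 for Cap-F (SE 0.23, adjusted p = 7.45e-05) and by 3.72 for ODNcap-F (SE 0.23, adjusted p = 1.03e-04), which is a 17.4-fold, 17.8-fold and 13.1-fold lower level. Among 28992 genes ordered by log2 fold change, Scgb3a2 was the 12th lowest in Ctrl-F, the 6th in Cap-F and the 16th in ODNcap-F.

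Scgb1c1, a less studied member of the family, was dimmer and fell less. It was at 11.23 and 11.31 for NT, 8.85 and 9.16 for Ctrl-F, 9.22 and 9.06 for Cap-F, and 9.07 and 9.31 for ODNcap-F. The highest challenged mouse was thus almost 2 log2 units below the lower NT mouse. The log2 fold change was -2.26 (SE 0.14, adjusted p = 8.00e-05) for Ctrl-F, -2.13 (adjusted p = 1.15e-04) for Cap-F and -2.08 (adjusted p = 1.19e-04) for ODNcap-F.

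Scgb3a1, a secretoglobin of the larger airways, lay on the other side. The NT mice were at 11.80 and 14.54, the Ctrl-F mice at 14.97 and 14.68, the Cap-F mice at 14.97 and 16.01, and the ODNcap-F mice at 15.40 and 16.02. All 6 challenged mice lay above both NT mice, but NT mouse 2 was close to the lower Ctrl-F mouse, and the 2 NT mice differed by 2.74. The log2 fold change against NT was 1.65 for Ctrl-F (interval -0.49 to 3.80, adjusted p = 0.148), 2.32 for Cap-F (0.18 to 4.46, adjusted p = 0.0646) and 2.54 for ODNcap-F (0.40 to 4.69, adjusted p = 0.0467), and only the last was called. The values rest on NT mouse 1. Without it they were 0.29, 0.96 and 1.18, none of them called (adjusted p = 0.652, 0.230 and 0.108), and without NT mouse 2 they were 3.05, 3.72 and 3.94, all called. The ODNcap-F call was also lost without any 1 of the 6 challenged mice, at adjusted p between 0.0593 and 0.166. That Scgb3a1 passed the threshold in ODNcap-F and not in Ctrl-F is not a difference between these groups, which was 0.89 (interval -1.25 to 3.03, adjusted p = 0.879).

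Bpifb1 rose the most. It was at 8.48 and 10.03 for NT, 13.48 and 12.85 for Ctrl-F, 12.49 and 14.21 for Cap-F, and 13.75 and 14.63 for ODNcap-F. The lowest challenged mouse, in Cap-F, lay over 2 log2 units above the higher NT mouse. The log2 fold change was 3.91 for Ctrl-F (SE 0.74, interval 2.08 to 5.73, adjusted p = 0.00526), 4.09 for Cap-F (2.27 to 5.92, adjusted p = 0.00488) and 4.93 for ODNcap-F (3.11 to 6.76, adjusted p = 0.0022), or 15.0-fold, 17.1-fold and 30.5-fold. With each mouse left out in turn the change stayed called, between 3.14 and 4.70 for Ctrl-F, 3.24 and 4.95 for Cap-F and 4.17 and 5.74 for ODNcap-F.

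Bpifa1, which is next to Bpifb1 in the RefSeq gene order but for Bpifa5, did not move with it. NT mice were at 8.68 and 11.02, Ctrl-F mice at 8.80 and 9.01, Cap-F mice at 8.53 and 8.80, and ODNcap-F mice at 8.73 and 9.99. NT mouse 2 and ODNcap-F mouse 2 stood above the other 6 mice, which lay between 8.53 and 9.01. The log2 fold change was -0.94 (interval -2.85 to 0.97, adjusted p = 0.331) for Ctrl-F, -1.18 (-3.09 to 0.73, adjusted p = 0.240) for Cap-F and -0.49 (-2.40 to 1.42, adjusted p = 0.615) for ODNcap-F. Without NT mouse 1 Bpifa1 was called lower in Ctrl-F (-2.12) and Cap-F (-2.36), and without NT mouse 2 the values were 0.23 and -0.01, so that its direction depended on a single NT mouse.

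NT mouse 2 was thus higher than NT mouse 1 in Scgb3a1 by 2.74, in Bpifa1 by 2.34 and in Bpifb1 by 1.56, while they differed by 0.30 or less in the other 5 members. NT mouse 2 was also higher in Muc5b by 1.05 and in Tff2 by 1.07, but not in Muc5ac, which was 4.63 in mouse 1 and 4.48 in mouse 2. The mean log2 level of 5 measured cartilage genes was 6.47 and 6.62 in the 2 NT mice, and 8 of 13 cartilage genes were not well above background on both arrays of any group. The mean over 6 measured serous gland genes lay between 7.23 and 7.37 for NT. How much of the airway tree each piece of lung held was not tested.

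Aldh1a1 oxidizes retinaldehyde to retinoic acid and also lipid aldehydes. It was at 16.09 and 16.13 for NT, 14.14 and 14.19 for Ctrl-F, 14.48 and 14.94 for Cap-F, and 14.31 and 14.66 for ODNcap-F. The groups did not overlap with NT. The log2 fold change was -1.94 (SE 0.18, adjusted p = 2.92e-04) for Ctrl-F, -1.40 (adjusted p = 0.00115) for Cap-F and -1.62 (adjusted p = 6.16e-04) for ODNcap-F. Its near-identical neighbour Aldh1a7 was at 12.94 and 12.91 for NT and between 12.73 and 13.05 in the 6 challenged mice. Aldh1a7 had a log2 fold change of -0.10 for Ctrl-F (adjusted p = 0.401), 0.02 for Cap-F and 0.11 for ODNcap-F, and was not called. Whether RNA of one gene bound to the probe of the other was not tested.

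Fmo2 encodes a flavin-containing monooxygenase, the main one of the lung in many mammals. On its brighter probe it was at 11.68 and 11.84 for NT, 8.74 and 9.08 for Ctrl-F, 9.05 and 9.40 for Cap-F, and 9.05 and 9.42 for ODNcap-F. The 6 challenged mice lay in a narrow range over 2 log2 units below NT. The log2 fold change was -2.85 (SE 0.19, adjusted p = 1.14e-04), -2.53 (adjusted p = 2.01e-04) and -2.52 (adjusted p = 1.97e-04), and the second probe gave -2.89, -2.53 and -2.64, all called.

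**Figure D3:**
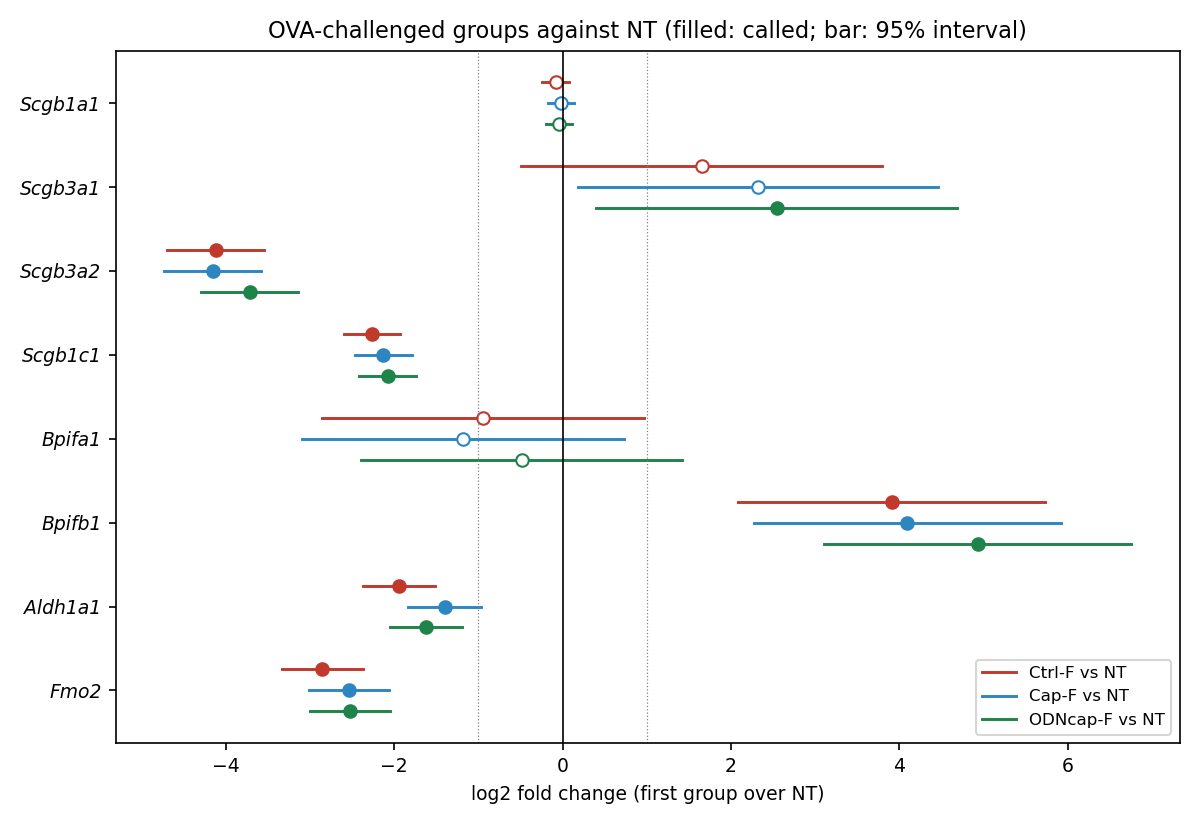
Log2 fold change of each gene in the 3 OVA-challenged groups against NT (horizontal axis), with 95% intervals from limma; filled points were called and dotted lines mark a 2-fold change. Scgb3a2 lies near -4, Bpifb1 lies between 3.91 and 4.93, and the intervals of Bpifa1 cross 0 in all 3 comparisons.

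The 4 members that fell and Bpifb1 were called in all 3 comparisons with NT, which share the 2 NT mice and are not independent of each other. Without each mouse in turn, these 5 genes stayed called in every comparison with NT. The number of members called lay between 5 and 6 in each.

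Other genes of club cells lay mostly lower after challenge. In Ctrl-F, 17 of the 27 measured genes of a club cell list were called lower and none higher, with a median log2 fold change of -1.26. In Cap-F 14 were called lower and none higher (median -1.20), and in ODNcap-F 14 lower and 1 higher, Gsto1 (median -1.06), and 13 of the 27 were called lower in all 3. With each mouse left out in turn, 15 to 18 genes of the list were called in Ctrl-F, 13 to 16 in Cap-F and 12 to 15 in ODNcap-F. Cyp2f2, the cytochrome P450 that activates naphthalene in club cells, fell from 16.68 and 16.73 for NT to 14.70 and 14.83 for Ctrl-F, 14.98 and 15.36 for Cap-F, and 14.84 and 15.14 for ODNcap-F. Pon1, an esterase that hydrolyses oxidized lipids, was at 11.12 and 11.29 for NT and between 5.52 and 6.29 in the 6 challenged mice. Its log2 fold change was -5.58 for Ctrl-F (adjusted p = 4.85e-06), -5.10 for Cap-F and -4.97 for ODNcap-F. The glutathione transferase Gsta3 (-3.34, -2.68 and -2.94) and the sulfotransferase Sult1d1 (-3.27, -2.82 and -2.19) also fell in the 3 groups. Cyp2f2 fell by 1.95, 1.53 and 1.71.

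Of the relatives of Aldh1a1 and Fmo2 described here, 10 were measured. In Ctrl-F, 3 were called lower, namely Aldh2 (-1.78), Fmo1 (-1.49) and Fmo5 (-1.21), and 2 higher, Aldh1a3 (2.97) and Aldh1b1 (2.45). Aldh1a3, another retinaldehyde dehydrogenase, thus rose where Aldh1a1 fell, by 2.86 for Cap-F and 3.59 for ODNcap-F. Aldh2, the mitochondrial enzyme that oxidizes acetaldehyde, fell by 1.63 for Cap-F and 1.67 for ODNcap-F. In these groups 2 and 3 relatives were called lower and 2 and 2 higher. Of all genes, 12.2% were called lower and 10.5% higher in Ctrl-F, 9.87% and 9.74% in Cap-F, and 10.8% and 9.86% in ODNcap-F. Whether the relatives held more calls than other genes was not tested. Aldh1a2, the list's first gene, had a log2 fold change of -0.04 for Ctrl-F. The list's median was -0.51, -0.48 and -0.29.

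Other secretoglobins gave little signal. Of 26 listed, 17 had a probe and 4 were measured, and their only call was Scgb2b20, lower in Cap-F (-1.04, adjusted p = 5.15e-04). Scgb2a2, the first listed, had no probe. Of 15 other genes of the BPI family, 8 were measured, without Bpifa2, the first listed, and in each comparison with NT 3 were called higher and 1 lower. The 3 were Bpifa3, Bpifb4 and Bpifb6, all below background in both NT mice, so that only bounds can be given, taken against the lowest log2 intensity well above background. In ODNcap-F they were at least 3.69-fold, 2.58-fold and 1.80-fold higher. In Ctrl-F Bpifb4 was at least 3.36-fold and Bpifa3 at least 1.99-fold higher, and 1 of the 2 Ctrl-F mice was below background for Bpifb6. Some of these bounds are under the 2-fold limit, so that the calls rest in part on values below background, and with normexp, with the deposited table or when probes had to be above background on every array, 1 gene of the list was called in each comparison. The gene that fell was Pltp, the phospholipid transfer protein of plasma and lung, from 13.92 and 13.97 for NT to 11.18 and 11.33 for Ctrl-F (-2.69), with -2.52 for Cap-F and -2.53 for ODNcap-F. Bpifa5, between Bpifa1 and Bpifb1 in gene order, had values of 0.38, 0.18 and 0.44 and was not called. The median of this list was 0.39 for Ctrl-F, 0.20 for Cap-F and 0.47 for ODNcap-F. Of all genes, 9.74% to 10.5% were called higher and 9.87% to 12.2% lower in the 3 comparisons with NT.

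Among 16 regulators of airway secretory cells, 2 were called higher in each comparison with NT, the mucous cell factors Spdef and Foxa3. Of all genes, 10.5% were called higher for Ctrl-F, 9.74% for Cap-F and 9.86% for ODNcap-F. Lower calls in the list numbered 3 for Ctrl-F, 2 for Cap-F and 2 for ODNcap-F, beside 12.2%, 9.87% and 10.8% of all genes. Whether the list held more calls than other genes was not tested. Spdef was at 8.67 and 8.55 for NT, 10.45 and 10.25 for Ctrl-F, 10.12 and 11.04 for Cap-F, and 10.67 and 11.29 for ODNcap-F. Foxa3 was below background in NT and at least 3.97-fold higher in Ctrl-F, 5.35-fold in Cap-F and 6.56-fold in ODNcap-F. Hes1, a target of Notch signalling, fell by 1.27, 1.47 and 1.37, and in Ctrl-F Foxa1 (-1.19) and Foxa2 (-1.14) were also called lower. Foxa1 was also called in Cap-F (-1.06), and Foxa2 for ODNcap-F (-1.05). Nkx2-1, the lung lineage factor, was 11.84 and 11.79 for NT and between 10.88 and 11.03 in the challenged mice, a log2 fold change of -0.87, -0.90 and -0.80 that lay under the 2-fold limit although its adjusted p was at most 3.16e-04. The list's median was -0.45, -0.41 and -0.27.

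Genes of mucous cells lay far higher after challenge. Of 14 measured, 13 were called higher in each comparison with NT, with medians of 4.18, 4.96 and 5.40. The mean log2 level of the 14 ran from 6.44 to 6.91 for NT and from 11.11 to 12.34 in the challenged mice. Clca1, a secreted protein of mucous cells, was below background in NT mouse 1, at 5.38 in NT mouse 2 and between 16.68 and 17.23 in the challenged mice. Slc26a4, an anion exchanger, had log2 fold changes of 8.64, 8.53 and 8.57, and the lectin Itln1 of 6.34, 6.70 and 7.33. Muc5ac, the main inducible mucin, was at 4.63 and 4.48 for NT, 10.54 and 9.93 for Ctrl-F, 9.99 and 11.79 for Cap-F, and 10.88 and 11.71 for ODNcap-F. Muc5b, the mucin present also in healthy airways, was at 10.36 and 11.41 for NT, 14.21 and 13.60 for Ctrl-F, 13.92 and 15.18 for Cap-F, and 14.68 and 15.32 for ODNcap-F. In every group the mouse with more Muc5b was also the one with more Bpifb1 and more Scgb3a1. This order of mice was not particular to genes that rose. It also held for Scgb3a2, which fell, and for the mean level of the ciliated cell genes. In Cap-F, mouse 2 was higher by 1.25 in Muc5b, 1.72 in Bpifb1, 1.04 in Scgb3a1 and 1.80 in Muc5ac.

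**Figure D4:**
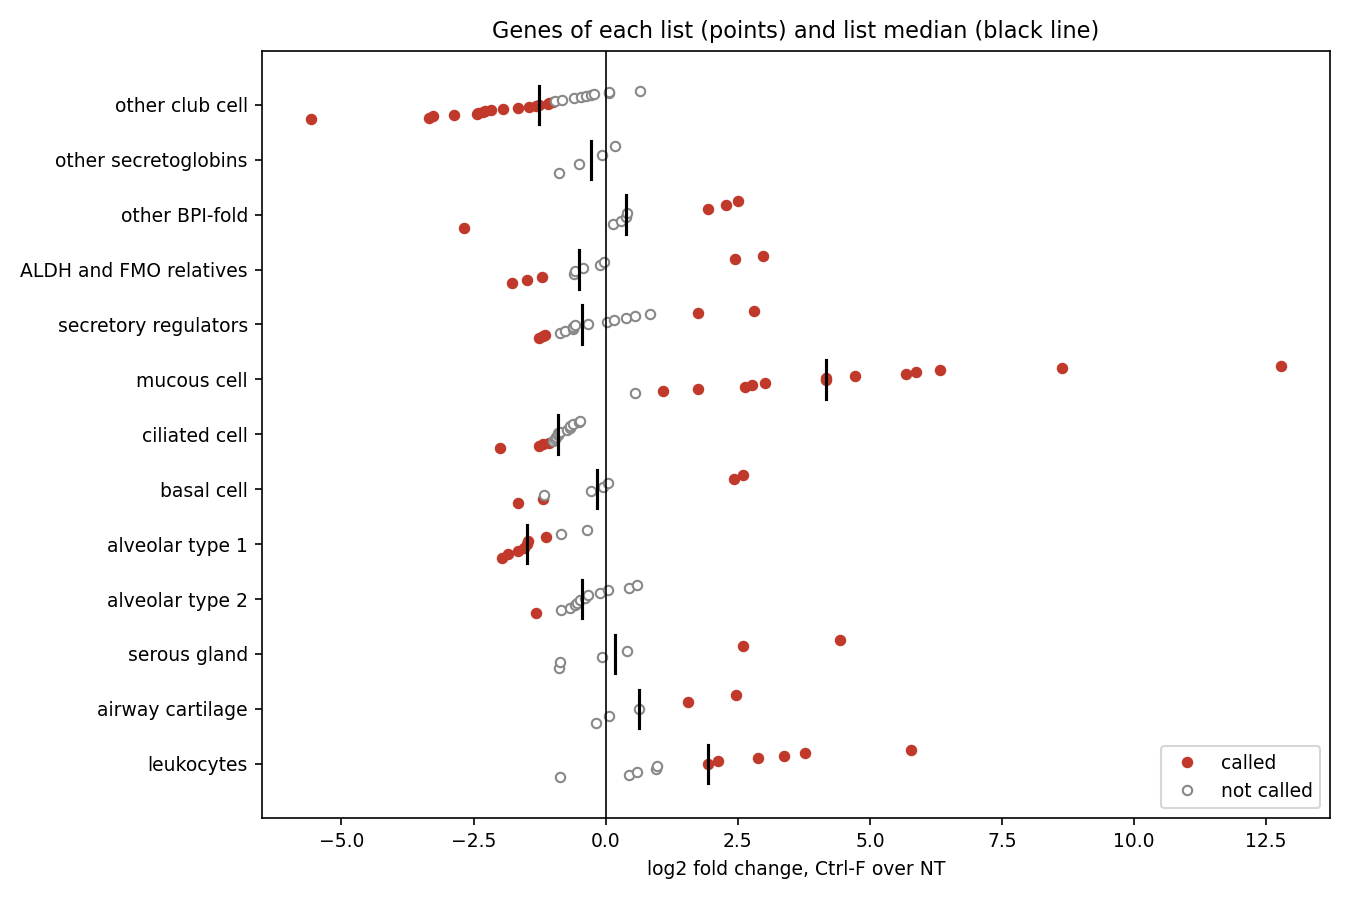
Log2 fold change in Ctrl-F against NT (horizontal axis) of each measured gene of 13 lists; red points were called, open points were not, black lines are list medians, and genes below background in a group stand at their fitted value. Mucous cell genes lie at a median of 4.18 and other club cell genes at -1.26.

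Markers of other cell types were read in the same lungs, and their part in the changes of the members was not tested. Of 16 ciliated cell genes, 4 were called lower in Ctrl-F and 1 each in Cap-F and ODNcap-F, where 12.2%, 9.87% and 10.8% of all genes were called lower. Their median log2 fold change was -0.91, -0.50 and -0.30. Foxj1, the defining factor of ciliated cells, was not called, with a log2 fold change of -0.50 for Ctrl-F, and Tppp3 (-1.99), Drc1 (-1.25) and Cdhr3 (-1.18) fell the most there. Of 9 alveolar type 1 genes, 7 were called lower in each comparison with NT, among them Akap5 (-1.97), Hopx (-1.85) and Clic5 (-1.67) for Ctrl-F, with Ager at -0.84. Of 12 alveolar type 2 genes 1 was called lower in each comparison with NT, Lyz2 (-1.31 for Ctrl-F), and Sftpc differed by 0.04. Of 11 leukocyte genes, 6 rose in Ctrl-F, 8 for Cap-F and 6 for ODNcap-F. Those that rose the most in Ctrl-F were the eosinophil granule genes Epx, at least 27.2-fold higher, and Prg2 (3.77), and Itgax (3.37), while Ptprc, common to leukocytes, was at 0.97 there. The summed intensity of the leukocyte list ran from 18508 to 22644 for NT and from 42186 to 62553 in the challenged mice. That of the club cell list ran from 778909 to 805964 for NT and from 291363 to 419660 in the challenged mice. A lower sum was not particular to club cells. Ciliated cell genes ran from 85999.6 to 86091.6 for NT and from 30606 to 45990.5 after challenge. A sum weighs the brightest genes most, and most ciliated cell genes were not called. The mean log2 level of the ciliated cell list was 10.5 and 10.6 for NT and between 9.5 and 10.3 after challenge. Alveolar type 1 genes ran from 324393 to 339714 and from 138865 to 164896. Those of type 2 differed less, at 540722 to 551665 and 501664 to 535181. That sum includes Sftpc, about as bright as Scgb1a1, so that quantile normalization left it little room to differ. The median log2 fold change of the type 2 list was -0.44 for Ctrl-F, -0.53 for Cap-F and -0.49 for ODNcap-F.

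Basal cell, gland and cartilage genes were read too, beside 12.2% of all genes called lower and 10.5% higher in Ctrl-F. Krt5, the defining keratin of basal cells, was not well above background in both mice of any group. Of 8 other basal cell genes, Ngfr (2.59) and Aqp3 (2.43) rose and Dapl1 (-1.66) and Snai2 (-1.19) fell in Ctrl-F, and these 2 and 2 were called in all 3 comparisons. Of 6 serous gland genes, Dmbt1 (at least 7.42-fold higher in Ctrl-F) and Ltf (2.59) rose in all 3, and Azgp1, which was below background in both Cap-F mice, was at least 2.47-fold lower in Cap-F. Of 5 cartilage genes, Comp (2.47) and Col2a1 (1.55) rose in Ctrl-F and in the other 2 groups.

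Among the OVA-challenged groups, no member was called. In ODNcap-F against Ctrl-F, 0 of 8 members were called (0% of all genes), with adjusted p of at least 0.770. In ODNcap-F against Cap-F 0 were called (0.00345% of all genes, adjusted p at least 0.489), and in Cap-F against Ctrl-F 0 (0.00345%, adjusted p at least 0.236). Without adjustment for the number of genes, no member passed both p under 0.05 and a 2-fold change in any of the 3. The local-pooled-error test named in the methods called 1 member in ODNcap-F against Ctrl-F, Bpifb1, and none in the other 2. Over all 28992 genes it called 129 in ODNcap-F against Ctrl-F.

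All 8 members had a higher mean in ODNcap-F than in Ctrl-F, by 0.04 to 1.02 on the log2 scale (median 0.37), where the median over all genes was -0.01. In Cap-F, fed particles without the oligodeoxynucleotide, 6 of the 8 also had a higher mean than in Ctrl-F (median 0.16). A shared direction was not particular to the members. With ODNcap-F set against Ctrl-F, all 16 ciliated cell genes had positive values, from 0.05 to 0.69 (median 0.56). All values of the alveolar type 1 and serous gland lists were positive too. Every other list held both signs, but not evenly. Mucous cell genes had the largest median of the 13 lists, 0.99, with a lowest value of -0.06. The club cell list had a median of 0.37. Medians were below 0 for the alveolar type 2 (-0.03), other secretoglobin (-0.05) and leukocyte (-0.09) lists. ODNcap-F and Ctrl-F also lay in different rows of the slide. Among the members, ODNcap-F exceeded Ctrl-F the most for Bpifb1, 1.02 (interval -0.80 to 2.85), and Scgb3a1, 0.89 (-1.25 to 3.03). For Scgb3a2 the difference was 0.40 (-0.17 to 0.98), for Fmo2 0.33 (-0.15 to 0.81), for Aldh1a1 0.32 (-0.11 to 0.75) and for Scgb1c1 0.18 (-0.15 to 0.52). These 4 genes were all called lower in ODNcap-F than in NT. Between Cap-F and Ctrl-F the difference with the smallest adjusted p was that of Aldh1a1, 0.54 (0.11 to 0.97, adjusted p = 0.236). Between ODNcap-F and Cap-F it was that of Scgb3a2, 0.44 (-0.14 to 1.01, adjusted p = 0.489). No gene of the 13 lists was called in these 3 comparisons either. With 2 mice against 2, an exact permutation test cannot go below p = 0.333.

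**Figure D5:**
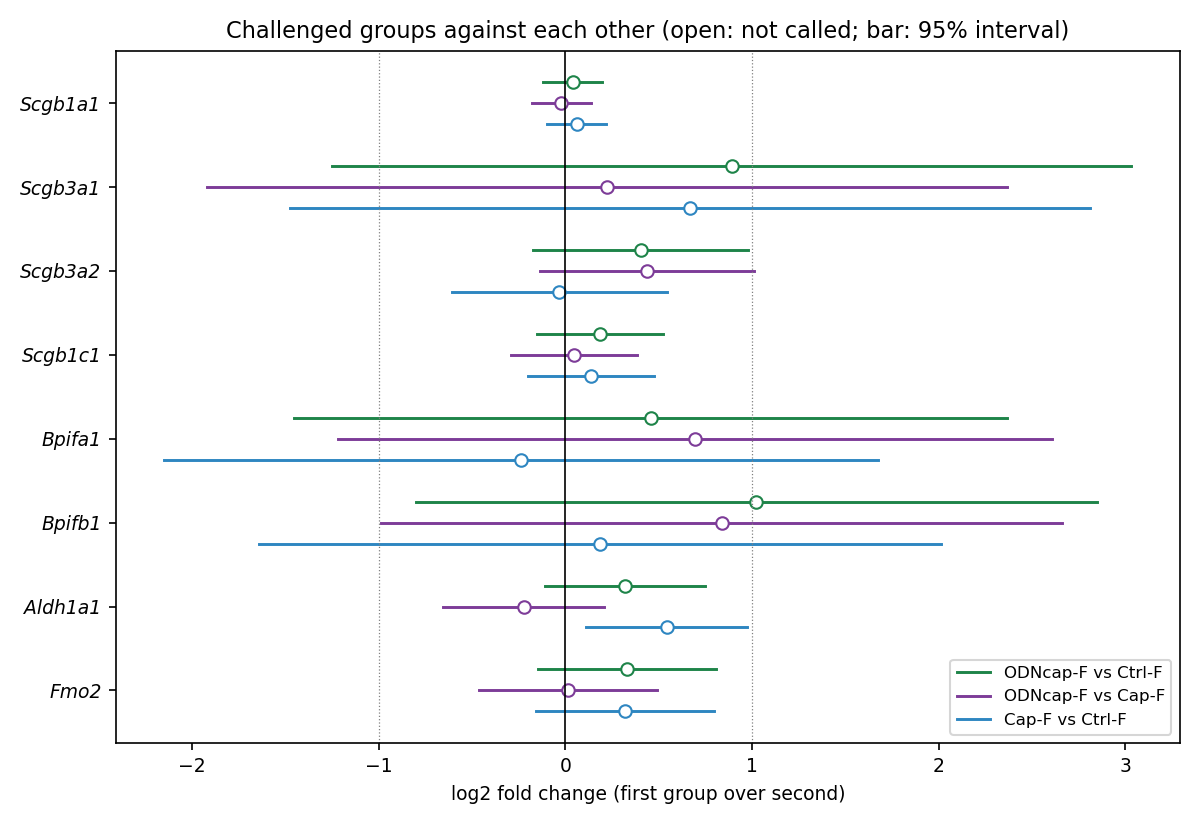
Log2 fold change of each gene between OVA-challenged groups (horizontal axis), with 95% intervals from limma; open points were not called and dotted lines mark a 2-fold change. No member was called, and the widest intervals are those of Scgb3a1, Bpifa1 and Bpifb1.

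The order of the group means was NT, Cap-F, ODNcap-F, Ctrl-F from high to low for Scgb1a1 and Aldh1a1, and NT, ODNcap-F, Cap-F, Ctrl-F for Scgb1c1 and Fmo2. It was NT, ODNcap-F, Ctrl-F, Cap-F for Scgb3a2 and Bpifa1, and ODNcap-F, Cap-F, Ctrl-F, NT for Scgb3a1 and Bpifb1. Neighbours in these orders within the 3 challenged groups were not told apart by the fit.

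As a measure of likeness, each member was set against all named genes by Pearson's r over the 8 arrays, which share the step between NT and the challenged groups. Over these 8 arrays the 2 most alike were Tmc5 (r = 0.995) and Muc5b (0.993) for Bpifb1, and Gml2 (0.958) and Glcci1 (0.953) for Scgb3a1. They were Cdh13 (0.998) and Col4a5 (0.998) for Scgb3a2, Yap1 (0.999) and Wwc2 (0.999) for Scgb1c1, Itgbl1 (0.998) and Rgs11 (0.998) for Aldh1a1, and Gucy1a2 (0.999) and Zfp354a (0.998) for Fmo2. For Bpifa1 they were Poglut2 (0.954) and 4930453N24Rik (0.930), and for Scgb1a1 Daw1 (0.973) and A430088P11Rik (0.968).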

How the data were processed

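Per array, the authors deposited spot intensity after background subtraction by Agilent Feature Extraction 11.0, not normalized between arrays, and a quantile-normalized log2 table of 32312 probes, used as an alternative. Control spots were left out, 792 flagged spot values were set to missing, and intensities were log2 transformed, averaged by probe and quantile normalized over 8 arrays. A probe was kept when some group had it well above background in both mice, 37116 of 56605. The brightest kept probe stands for a gene. Names came from a RefSeq table (GRCm38.p6) by accession, which named 58.3% of probes. A single limma model (version 3.58.1, under R 4.3.3) took all arrays without covariates, with Benjamini-Hochberg adjustment over all kept probes. The methods' local-pooled-error test was rebuilt as an alternative, and both were tested on simulated data. The lowest log2 value well above background was 3.61 to 4.18 by array, no spot was saturated, and the number of arrays limits precision.

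Members and lists were chosen with earlier results of these data known. Text names all members, each list's first gene, up to 3 called genes each way per list and comparison, and the 2 genes most alike to each member. Aldh1a7, Bpifa5 and Tff2 fall outside this rule and were chosen after their values were seen. The alternatives tried were scaling to the 75th percentile, normexp with an offset of 50, the deposited table, other filters, an intensity trend, the replicate number as a block, fits restricted to 2 groups, leaving out each array, the mean of a gene's probes, an unadjusted p and no fold limit. A gene among the relatives of Aldh1a1 and Fmo2 is not reported here and was left out of that list and its counts after its values were seen. Other measurements of the study were not analysed here.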

Additional observations from a re-analysis of the deposited data

How the results depend on the processing

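Across all alternatives, the falls of Scgb3a2, Scgb1c1, Aldh1a1 and Fmo2 and the rise of Bpifb1 against NT kept their direction and their call. The number of members called against NT was 5 to 6 without each array in turn, in each of the 3 comparisons, and 0 without each array in the comparisons among challenged groups. With the local-pooled-error test, 6, 7 and 6 members were called in the 3 comparisons with NT (Ctrl-F, Cap-F, ODNcap-F), Scgb3a1 in all 3 and Bpifa1 in Cap-F among them. Of all 28992 genes, this test called 6607, 5691 and 5982 there. It called 1 member in ODNcap-F against Ctrl-F, Bpifb1, where 129 of all genes were called.

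Scgb3a1 in ODNcap-F against NT lost its call with no filter (adjusted p = 0.100) and with only the 2 groups compared (adjusted p = 0.0922). Its change in Cap-F against NT gained a call in 7 of the alternatives with all arrays, with adjusted p up to 0.0482 (the deposited table). Replicate numbers are shared by the groups. Correlations between the deviations of mice of the same number ran from -0.01 to 0.16, the highest between Cap-F and ODNcap-F. With the replicate number as a block the members called against NT were 5 for Ctrl-F, 6 for Cap-F and 6 for ODNcap-F, with Scgb3a1 in Cap-F at adjusted p = 0.0412.

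Directions that turned were those of values not called. Without 1 array, Bpifa1 ran from -2.12 to 0.23 in Ctrl-F and from -1.66 to 0.69 in ODNcap-F against NT, and from -0.17 to 1.09 in ODNcap-F against Ctrl-F. Bpifb1 ran from -0.67 to 1.04 in Cap-F against Ctrl-F and from -0.0228 to 1.70 in ODNcap-F against Cap-F. In ODNcap-F against Cap-F, Fmo2 ran from -0.17 to 0.20, Scgb1c1 from -0.0700 to 0.17 and Scgb3a1 from -0.30 to 0.74. In Cap-F against Ctrl-F, Scgb1c1 ran from -0.0188 to 0.29 and Scgb3a2 from -0.28 to 0.22. With the mean of its probes Fmo2 was -0.0505 in ODNcap-F against Cap-F, with 75th percentile scaling Scgb1a1 was 0.11 there, and with normexp Scgb3a2 was 0.0427 in Cap-F against Ctrl-F. The cause was not tested.

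Over all genes, 6603 were called in Ctrl-F against NT, 5685 in Cap-F and 5999 in ODNcap-F. With normexp these were 3548, 3044 and 3142, and by adjusted p alone, without the fold limit, 17941, 16395 and 17389.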
